A study of Mus musculus with 16 samples.

Results

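The genes described here are 9 genes of oligodendrocyte precursor cells and of the early oligodendrocyte lineage (Pdgfra, Cspg4, Gpr17, Tnr, Olig1, Olig2, Sox10, Vcan and Bcas1), chosen by name and matched through their Ensembl IDs to the mouse GENCODE annotation. All 9 were found among the 38924 gene IDs of each count table, and all 9 were among the 18350 genes that passed the filter on low counts. They were read in 16 mRNA sequencing libraries, with 4 libraries in each of 4 groups. The libraries came from mouse brain punches described as the ventral posterolateral nucleus of the thalamus, which passes touch and pain signals to cortex. The groups were wild type (WT) naive, RGS4 KO naive, WT after CFA and RGS4 KO after CFA. CFA is not spelled out in the labels; in pain research the letters usually mean complete Freund's adjuvant, which causes inflammation where it is injected. The labels give no time or dose. The series text describes a floxed RGS4 gene and an adeno-associated virus that carries Cre into this nucleus, while the sample labels give only the genotype. Each library pooled 4 punches of 12 gauge from 2 mice, and the mice are named male in the protocol and female in the sample labels; neither age nor strain is stated. Nor is it stated whether WT animals received a vector.

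Total counts per library lay between 18.1 M and 78.8 M, with a median of 42.6 M, and the lowest count of any of the 9 genes in any library was 517 (Cspg4, naive library 7 labelled KO). Levels are given as CPM, read counts per M of TMM-adjusted library size. Rgs4, the targeted gene, lay between 77.3 and 85.2 CPM in WT naive, 78 and 84.5 CPM in naive libraries labelled KO, 81.1 and 96.8 CPM in WT after CFA and 77.5 and 90.2 CPM in CFA libraries labelled KO. No fall was detected where the label says KO (naive fold 1, 95% interval 0.93 to 1.08; after CFA 0.939, 0.871 to 1.01; edgeR's quasi-likelihood test, adjusted p = 0.979 and 0.519), so those groups are written as libraries labelled KO. Of 11 listed thalamic relay markers 10 passed the filter on low counts (Gbx2 did not). None of the 10 was at 0 in any group. Their means over the 16 libraries ran from 1.01 CPM (Tnnt1) to 470 CPM (Slc17a6), with Lef1 at 11.2 and Prkcd at 14 CPM. The GABA synthesis genes Gad1 and Gad2 were at 391 and 545 CPM. Which nucleus the punches hold was not tested. By genotype, edgeR called 2 of the 10 higher in naive libraries labelled KO (Ntng1 and Cbln1) and 1 lower after CFA (Cbln1).

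Oligodendrocyte precursors are dividing glial cells spread through the adult brain. They are held in the precursor state by growth factor signalling through the PDGF alpha receptor, and on leaving it they pass through a short committed stage before they wrap axons in myelin. Some genes of the lineage are shut off on the way (Pdgfra, Cspg4), some are on only in between (Gpr17), and others are kept in the myelinating cell (Sox10, Olig1, Olig2, Bcas1). In punches, more cells of a type and more RNA per cell cannot be told apart.

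Set per kilobase of exon, so that genes can be compared, the 9 genes spanned a wide range of levels in these punches. Olig1, a basic helix-loop-helix transcription factor of the lineage, was highest with a mean of 75.6 CPM per kb over the 16 libraries, followed by Bcas1, a gene switched on in early myelinating cells, at 52.1 CPM per kb. Sox10, the HMG-box factor that drives myelin genes, was at 19.8, and Olig2, the partner of Olig1 that specifies the lineage, at 16.2 CPM per kb. Gpr17, a Gi-coupled receptor of committed precursors, followed at 13.7 CPM per kb. Lower were Pdgfra, the receptor for PDGF, at 8.13, the matrix glycoprotein gene Tnr (tenascin R) at 5.97, the versican gene Vcan at 2.7 and Cspg4, which encodes the NG2 proteoglycan, at 2.35 CPM per kb. Neighbours in this order whose ranges over libraries overlapped were Olig1 and Bcas1, Sox10 and Olig2, Olig2 and Gpr17, and Vcan and Cspg4. Even so, Olig1 lay above Bcas1 in 16 of 16 libraries, Sox10 above Olig2 in 15 and Vcan above Cspg4 in 14. The lengths come from GENCODE M21, which may differ from the annotation used for counting.

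In mm10 the genes lie on different chromosomes except for the Olig pair. Olig2 (chromosome 16, 91225457 to 91228677) and Olig1 (chromosome 16, 91269772 to 91271933) are neighbours on the plus strand, 41.1 kb apart. Pdgfra is on chromosome 5 (75152292 to 75198215), Cspg4 on chromosome 9 (56865033 to 56899870) and Tnr on chromosome 1 (159523769 to 159931729), all on the plus strand. Vcan is on chromosome 13 (89655312 to 89742509), Bcas1 on chromosome 2 (170346991 to 170427845) and Sox10 on chromosome 15 (79154908 to 79165240), all on the minus strand. The kit does not mark strand, so reads from overlapping genes cannot be separated with certainty. Of its 5195 exon bases Gpr17 shares 188 with Lims2 on the other strand, Olig1 shares 157 of 2162 with the noncoding gene Gm15966, and Bcas1 shares 440 of 3775 with Bcas1os1 and 34 with Bcas1os2. Pdgfra shares 30 bases with a microRNA gene. The exons of Cspg4, Tnr, Olig2, Sox10 and Vcan are shared with no other annotated gene of the count tables, the only genes searched.

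The upstream sequences of 4 of these genes are shown because these genes stand for the patterns described further on. Tnr and Vcan moved together over libraries, Pdgfra varied least of the 9 within groups, and Olig2 is 1 of the 4 with the widest scatter. RefSeq's table (GRCm38.p6) held a promoter for 5 of the 9 genes (Pdgfra, Cspg4, Tnr, Olig2 and Vcan). Each window is the 250 bases before the RefSeq start, 5′ to 3′ on the gene's strand. That of Olig2 is printed up to the base before the GENCODE gene, which leaves 157 bases. Capitals mark matches on either strand to the 7 motifs searched, the E-boxes CAGCTG and CATCTG, the SOX motifs ACAAAG and AACAAT, the GC box GGGCGG, the CCAAT box and the TATA box TATAAA.
Tnr, chr1:159523519-159523768, plus strand: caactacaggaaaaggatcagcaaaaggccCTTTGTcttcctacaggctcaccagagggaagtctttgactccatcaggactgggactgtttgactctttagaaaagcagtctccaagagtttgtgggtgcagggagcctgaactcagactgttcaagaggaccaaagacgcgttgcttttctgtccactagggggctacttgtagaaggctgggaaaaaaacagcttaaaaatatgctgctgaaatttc
Vcan, chr13:89742513-89742762, minus strand: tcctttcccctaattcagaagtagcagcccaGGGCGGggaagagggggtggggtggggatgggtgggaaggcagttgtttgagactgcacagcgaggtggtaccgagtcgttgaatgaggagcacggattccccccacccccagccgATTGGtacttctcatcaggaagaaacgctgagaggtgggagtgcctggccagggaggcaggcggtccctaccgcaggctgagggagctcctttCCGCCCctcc
Pdgfra, chr5:75152001-75152250, plus strand: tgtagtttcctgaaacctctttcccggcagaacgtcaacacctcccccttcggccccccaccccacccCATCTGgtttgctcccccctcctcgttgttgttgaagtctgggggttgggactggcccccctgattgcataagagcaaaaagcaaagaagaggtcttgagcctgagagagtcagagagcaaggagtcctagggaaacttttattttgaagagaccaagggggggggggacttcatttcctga
Olig2, chr16:91225300-91225456, plus strand: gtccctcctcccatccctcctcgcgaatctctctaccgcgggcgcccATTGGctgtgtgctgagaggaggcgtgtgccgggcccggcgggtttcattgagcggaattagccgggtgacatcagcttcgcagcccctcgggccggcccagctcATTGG

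Tnr and Vcan shared none of the 7 motifs in their windows. Tnr held 1 ACAAAG match, found in 16.5% of the 32851 promoters of the table, and 2 CG dinucleotides. Vcan held 2 GC boxes (in 32.7% of promoters), 1 CCAAT box (33.8%) and 10 CG dinucleotides. Pdgfra held 1 CATCTG E-box (14.4%). The full Olig2 window held 22 CG dinucleotides, more than 85.2% of promoters, with 2 CCAAT boxes, 2 GC boxes, 1 AACAAT match (9.42%) and 1 TATAAA match (12.4%). Of these matches only the CCAAT boxes lie in the 157 printed bases, and the others lie within the GENCODE gene. CAGCTG, found in 13% of promoters, was in none of the 5 windows. The matches describe the letters of these windows.

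The 9 genes differed in how much they varied between libraries of the same group. Bcas1 had a within-group SD of 0.22 on the log2 scale, Sox10 of 0.19, Olig2 of 0.14 and Olig1 of 0.13. Of the 8299 tested genes whose mean reached 20 CPM, 98.9%, 97.9%, 95.1% and 93.9% had a lower SD. Pdgfra (SD 0.06, with 50.3% of genes lower), Tnr (0.06, 53.2%), Gpr17 (0.07, 71.2%), Vcan (0.07, 73.1%) and Cspg4 (0.09, 82.5%) varied less. From the lowest to the highest library Bcas1 spanned 1.88-fold, and Pdgfra 1.16-fold.

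**Figure D1:**
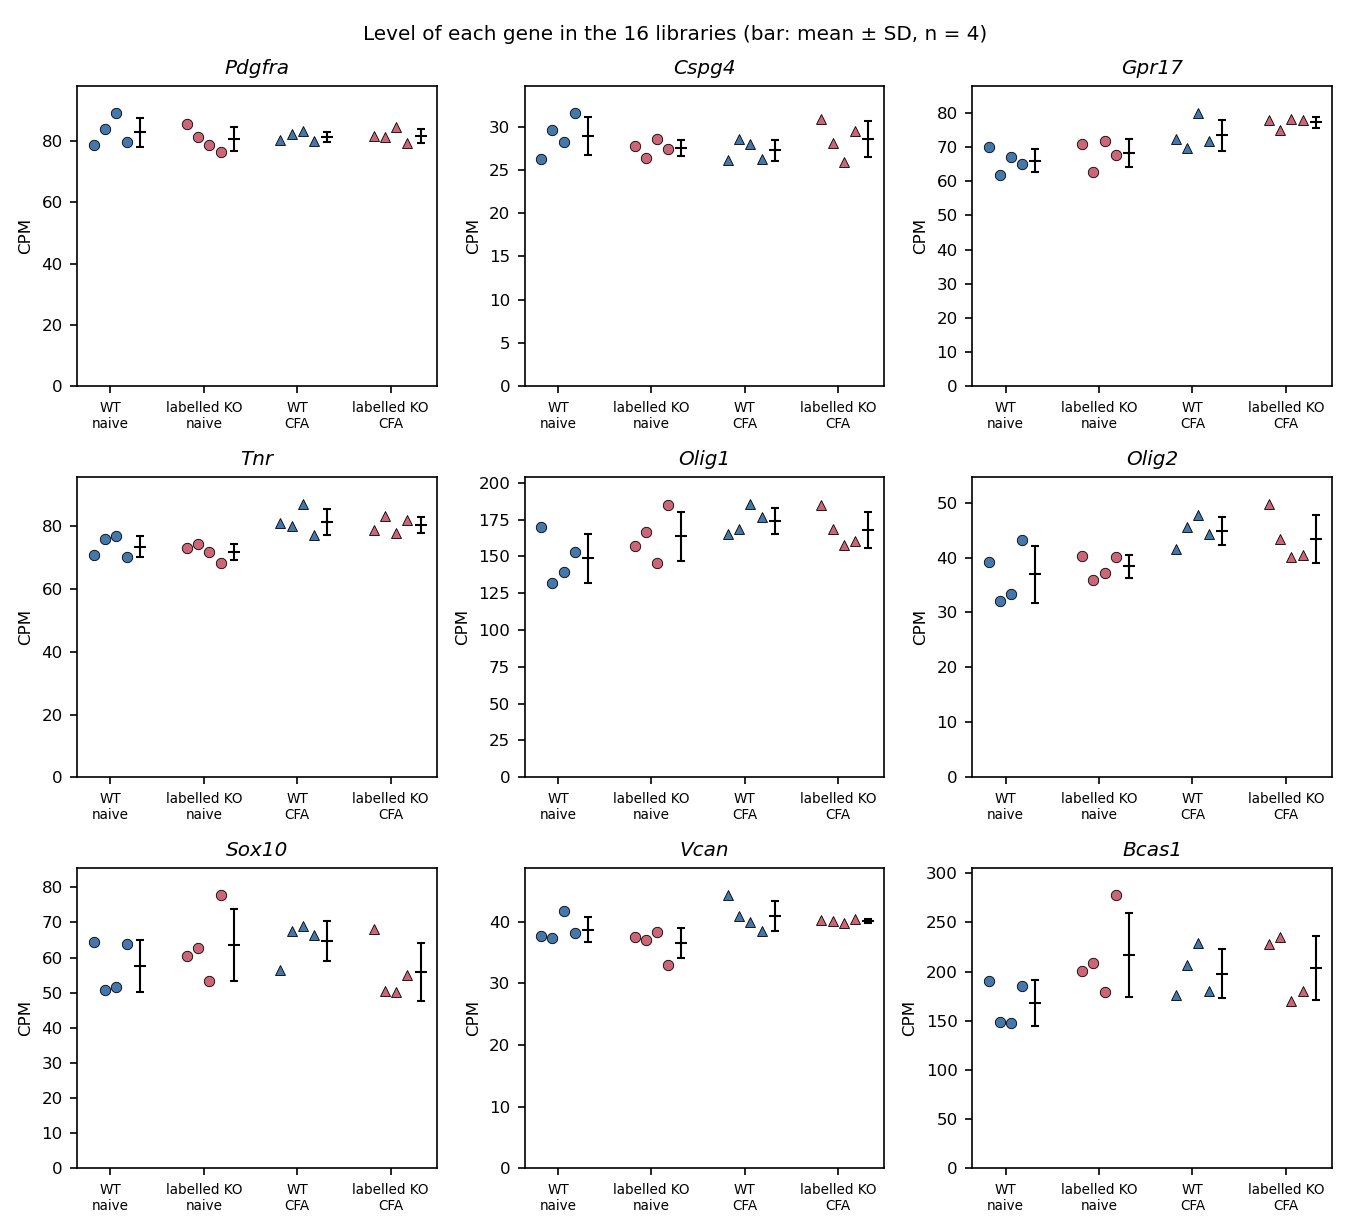
CPM (y axis, from 0) of each of the 9 genes in the 16 libraries by group (x axis); circles are naive and triangles CFA libraries, blue WT and red labelled KO, and the bar beside each group is the mean ± SD of 4 libraries. Gpr17 and Tnr sit higher in the CFA groups of both genotypes, Bcas1 and Sox10 scatter widely within groups, and Pdgfra stays between 76.4 and 88.9 CPM.

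Of the 4 genes with the wider scatter, Sox10, Bcas1 and Olig1 moved with the myelin genes from library to library, and Olig2 did so once group means were subtracted. The level of 18 myelin genes, among them Mbp and Mog, summed to between 7285 and 12260 CPM. It was lowest in WT naive libraries 2 (7285 CPM) and 3 (7649 CPM) and in libraries 7 (7672 CPM), 15 (7741 CPM) and 16 (7680 CPM) labelled KO, and highest in naive library 8 labelled KO. Bcas1 was at 190.4, 149, 147 and 186 CPM in WT naive libraries 1 to 4 and at 201, 209, 179 and 277 CPM in naive libraries 5 to 8 labelled KO. After CFA it was at 176, 206, 229 and 180.1 CPM in WT libraries 9 to 12 and at 228, 235, 170.4 and 180.1 CPM in libraries 13 to 16 labelled KO. The single highest Bcas1 value and the highest myelin sum were thus in the same library, number 8, and libraries 2, 3 and 15 held the 3 lowest Bcas1 values.

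Sox10 was also highest in library 8. In WT naive libraries 1 to 4 it was at 64.3, 50.8, 51.5 and 63.8 CPM, and in naive libraries 5 to 8 labelled KO at 60.4, 62.7, 53.4 and 77.7 CPM. After CFA the values were 56.4, 67.5, 68.8 and 66.4 CPM in WT and 68, 50.6, 50.2 and 54.9 CPM in libraries 13 to 16 labelled KO. Its groups overlapped in each of the 4 comparisons between 2 groups, and its 5 lowest libraries included number 14, whose myelin sum of 9886 CPM was not low.

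Olig1 was at 169.6, 132, 139.5 and 153 CPM in WT naive libraries and at 157, 167, 146 and 185 CPM in naive libraries labelled KO. After CFA it was at 165, 169, 185 and 177 CPM in WT and at 185, 168, 158 and 160.3 CPM in libraries labelled KO. Its lowest values were in WT naive libraries 2 and 3, as for Bcas1, and the groups overlapped in all 4 comparisons. Against the mean standardised log2 level of the myelin genes, Sox10 had Pearson r = 0.896 and Spearman rho = 0.9 over the 16 libraries (permutation p = 1e-05 for each, the smallest these resamples can give; adjusted p = 0.00045 over 45 relations). For Bcas1 the values were r = 0.852 (permutation p = 4e-05, adjusted p = 0.0009) and rho = 0.768 (adjusted p = 0.01), and for Olig1 r = 0.767 (permutation p = 0.00044, adjusted p = 0.00396) and rho = 0.762 (adjusted p = 0.01). Olig2 had r = 0.522 (permutation p = 0.0383, adjusted p = 0.133) and rho = 0.526 (permutation adjusted p = 0.126). Without the 2 libraries farthest from the median myelin score r was 0.875 for Sox10, 0.814 for Bcas1, 0.8 for Olig1 and 0.709 for Olig2. After each group's mean was subtracted, r was 0.874 for Sox10, 0.95 for Bcas1, 0.892 for Olig1 and 0.741 for Olig2 (permutation p adjusted over 45 relations 0.00792, 0.00405, 0.00405 and 0.0179).

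The same relation was weak or negative for the other 5 genes. Pearson r with the myelin score was -0.41 for Pdgfra, -0.05 for Cspg4, -0.08 for Gpr17, -0.21 for Tnr and -0.47 for Vcan, and the permutation test adjusted over the 45 relations passed for none of them. All values of a library share its depth and its scaling, and CPM are shares of a total, so the relations describe these libraries. That Olig1, Olig2, Sox10 and Bcas1 are grouped here was seen in the values, and no test was made of the grouping.

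**Figure D2:**
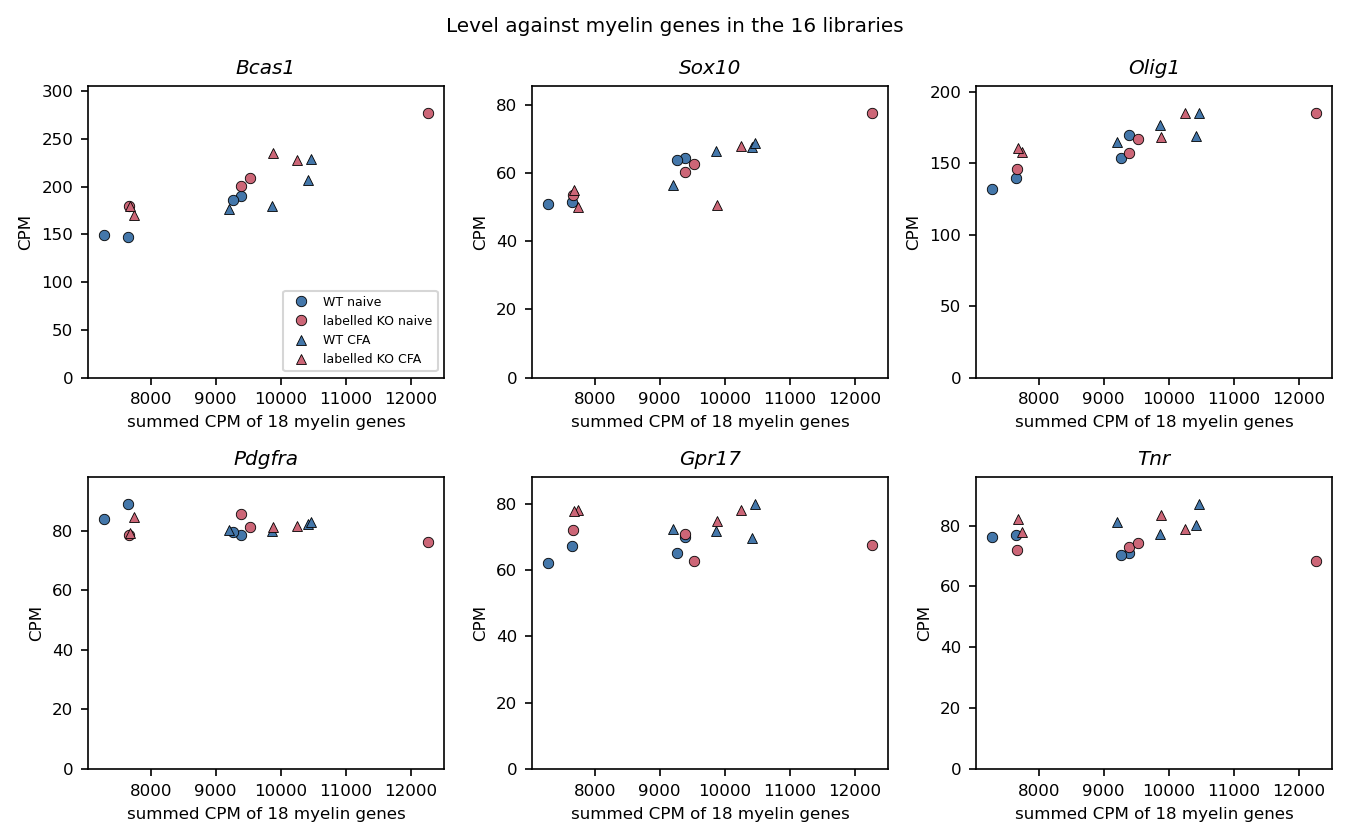
CPM of 6 of the 9 genes (y axes, from 0) against the summed CPM of 18 myelin genes (x axes, which do not start at 0), 1 symbol per library with colours and shapes by group. Bcas1, Sox10 and Olig1 rise along the myelin sum, with naive library 8 labelled KO at the far right (12260 CPM), while Pdgfra, Gpr17 and Tnr do not.

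Among themselves, 6 of the 36 pairs of genes had a Pearson r whose permutation p passed after adjustment over the 45 relations. They were Olig1 with Bcas1 (r = 0.816), with Olig2 (0.792) and with Sox10 (0.753), Tnr with Vcan (0.719), Sox10 with Bcas1 (0.687) and Gpr17 with Olig2 (0.654). The rank correlation did not pass after adjustment for Sox10 with Bcas1 (rho = 0.624, permutation adjusted p = 0.0606) and Gpr17 with Olig2 (rho = 0.565, permutation adjusted p = 0.111). Without the 2 libraries farthest from the median, r was 0.685 for Olig1 with Bcas1, 0.577 with Olig2 and 0.688 with Sox10. It was 0.694 for Tnr with Vcan, 0.532 for Sox10 with Bcas1 and 0.447 for Gpr17 with Olig2. The adjusted permutation p then missed the threshold for Olig1 with Olig2, Sox10 with Bcas1 and Gpr17 with Olig2. After group means were subtracted, Tnr with Vcan had r = 0.441 and Gpr17 with Olig2 r = 0.334, neither past the threshold (adjusted permutation p = 0.364 and 0.394), and Olig1 with Olig2 missed it too (r = 0.709, adjusted permutation p = 0.0558). Olig2 then passed with Sox10 (r = 0.769, adjusted permutation p = 0.0222) and with Bcas1 (r = 0.718, adjusted permutation p = 0.0257). Gpr17 with Tnr, at r = 0.616 (adjusted permutation p = 0.0507), passed by rank (rho = 0.662, adjusted permutation p = 0.0351) and without the 2 farthest libraries (r = 0.722, adjusted permutation p = 0.038), and had r = 0.07 after group means were subtracted. Pdgfra and Cspg4, the 2 classic precursor markers, had r = 0.02 with each other.

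**Figure D3:**
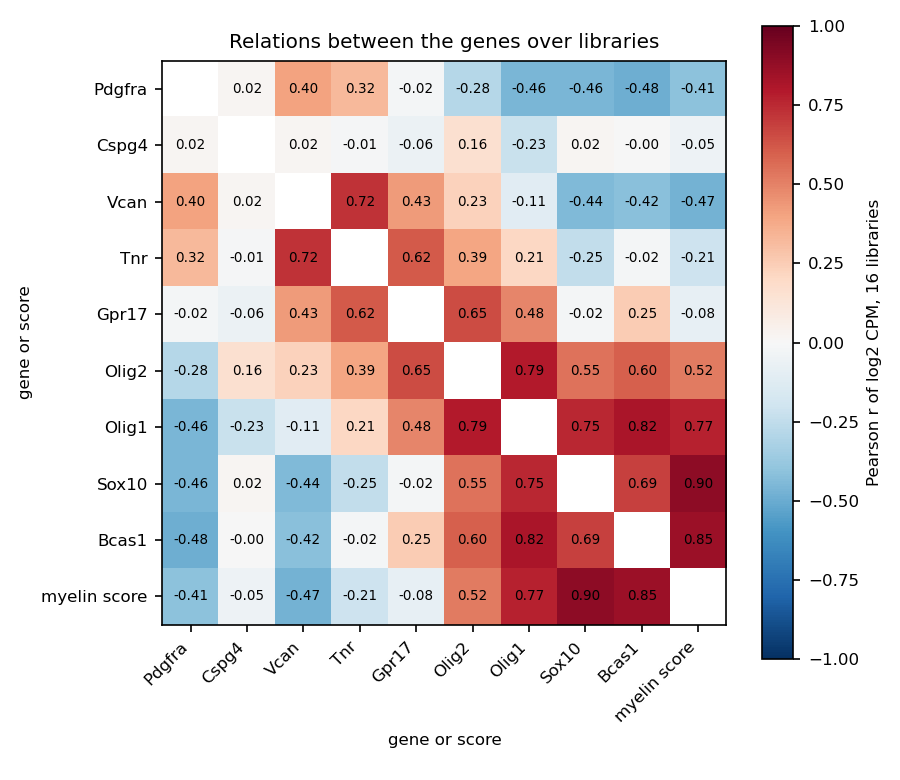
Pearson r of log2 CPM over the 16 libraries for each pair of the 9 genes and for each gene with the myelin score (rows and columns; red positive, blue negative). The block of Olig2, Olig1, Sox10, Bcas1 and the myelin score is positive throughout (0.52 to 0.90), and Tnr with Vcan stands at 0.72.

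The first comparison asked whether libraries labelled KO differed from WT in naive mice. None of the 9 genes was called by edgeR's quasi-likelihood test at an adjusted p under 0.05, where 1.45% of all tested genes were, and DESeq2 called 0 too. Of the 9, 1 had an unadjusted p under 0.05, where 13.8% of all tested genes did, and 0 of 9 had groups that did not overlap, where 7.23% of all genes had. That 1 gene was Bcas1, with a mean of 168 ± 23.1 CPM in WT against 217 ± 42.4 CPM in the libraries labelled KO (n = 4 a group, SD; log2 change 0.37, SE 0.16, edgeR adjusted p = 0.319). In the same comparison the myelin sum was 8394 ± 1083 CPM in WT against 9714 ± 1896 CPM in the libraries labelled KO. With the myelin score in the model the log2 difference of Bcas1 was 0.16 (edgeR adjusted p = 0.122), a fit that takes out a measure the gene itself moves with.

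The intervals show how large a difference the data leave room for. Pdgfra was at 82.8 ± 4.73 CPM in WT naive and 80.4 ± 3.9 CPM in naive libraries labelled KO, a 95% interval of the fold of 0.917 to 1.03. Tnr had an interval of 0.92 to 1.04, Gpr17 of 0.966 to 1.11, Cspg4 of 0.875 to 1.03 and Vcan of 0.874 to 1.01. Those of Olig2 (0.912 to 1.2), Olig1 (0.974 to 1.25), Sox10 (0.909 to 1.36) and Bcas1 (1.02 to 1.63) were wider.

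The same question was then put to mice given CFA. None of the 9 genes was called by edgeR (1.60% of all tested genes were) or by DESeq2, 0 had an unadjusted p under 0.05 (12.3% of all genes), and 0 had groups that did not overlap (8.03% of all genes). Pdgfra was at 81.3 ± 1.57 CPM in WT against 81.6 ± 2.22 CPM in the libraries labelled KO, with a fold interval of 0.947 to 1.06. Cspg4 was at 27.2 ± 1.21 and 28.6 ± 2.1 CPM. Sox10 had the largest fitted difference, -0.20 on the log2 scale (SE 0.13; edgeR adjusted p = 0.587), from 64.8 ± 5.69 CPM in WT to 55.9 ± 8.35 CPM in libraries labelled KO. The myelin sum was then 9989 ± 591 CPM in WT against 8890 ± 1370.5 CPM in the libraries labelled KO, and with the myelin score in the model the Sox10 difference was -0.06 (edgeR adjusted p = 0.79). Bcas1, at 198 ± 24.6 and 203 ± 32.7 CPM, had a log2 difference of 0.04. With the myelin score in the model its log2 difference was 0.22 (edgeR adjusted p = 0.0122), called with that term and not without it. That fit takes out a measure that Sox10 and Bcas1 themselves move with, and the part of myelin content in either value was not tested. The share of all genes called in that fit is not given here.

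Averaged over both treatments, a contrast added after the values had been seen, 0 of 9 genes were called by edgeR or DESeq2 (3.73% of all tested genes by edgeR) and 0 had an unadjusted p under 0.05 (14.3% of all genes). With the myelin score in the model Bcas1 was called, at a log2 difference of 0.19 (edgeR adjusted p = 0.000748). Bcas1 itself moves with that score (r = 0.95 after group means were subtracted), and the share of all genes called in that fit is not given here. The interaction, which asks whether CFA acted differently in the 2 genotypes, called 0 of 9 genes by edgeR or DESeq2 (0.0654% of all tested genes by edgeR), with 0 of 9 at an unadjusted p under 0.05 (9.86% of all genes). Its largest fitted values were -0.35 for Sox10 (SE 0.19) and -0.33 for Bcas1 (SE 0.22), and the 18 myelin genes had a median of -0.36. With the myelin score in the model the interaction was -0.04 for Sox10 (edgeR adjusted p = 0.978) and 0.06 for Bcas1 (adjusted p = 0.92), so that the uncalled Bcas1 value switched sign. Both genes move with the score that this fit takes out, and the part of myelin content in their interaction values was not tested.

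Averaged over both genotypes, Gpr17 and Tnr were higher after CFA, by 1.12-fold and 1.11-fold. Gpr17 (chromosome 18, 31942997 to 31949636, minus strand) was at 69.9, 62, 67.2 and 65.1 CPM in WT naive libraries and at 72.3, 69.7, 79.9 and 71.8 CPM in WT libraries after CFA. In libraries labelled KO it was at 70.8, 62.7, 71.9 and 67.7 CPM in naive and at 78, 74.9, 78.1 and 77.9 CPM after CFA. The groups did not overlap in libraries labelled KO, and in WT 1 CFA library (number 10) lay below the highest naive library. Averaged over genotypes, the contrast added after the values had been seen, Gpr17 was 1.12-fold higher after CFA (95% interval 1.07 to 1.18; log2 change 0.17, SE 0.03; edgeR adjusted p = 0.00974).

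Tnr, which anchors the matrix of perineuronal nets and is made by the oligodendrocyte lineage and by some neurons, was at 71, 76.1, 77 and 70.2 CPM in WT naive libraries and at 81.2, 80.1, 87.1 and 77.4 CPM in WT after CFA. Libraries labelled KO had Tnr at 73, 74.3, 72 and 68.4 CPM in naive and at 78.8, 83.4, 77.8 and 82.1 CPM after CFA. Every CFA library lay above every naive library of its genotype. Averaged over genotypes Tnr was 1.11-fold higher after CFA (95% interval 1.07 to 1.16; log2 change 0.15, SE 0.03; edgeR adjusted p = 0.00574). These 2 were the called genes among the 9 in this contrast, in which 1.81% of all tested genes were called. Among the 9, 5 had an unadjusted p under 0.05, where 14.6% of all genes did. DESeq2 called 3 of 9, Olig2 being the third, and it called 542 of all genes where edgeR called 332. Both genes were called under all 22 alternatives tried for this contrast, among them each library left out in turn.

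**Figure D4:**
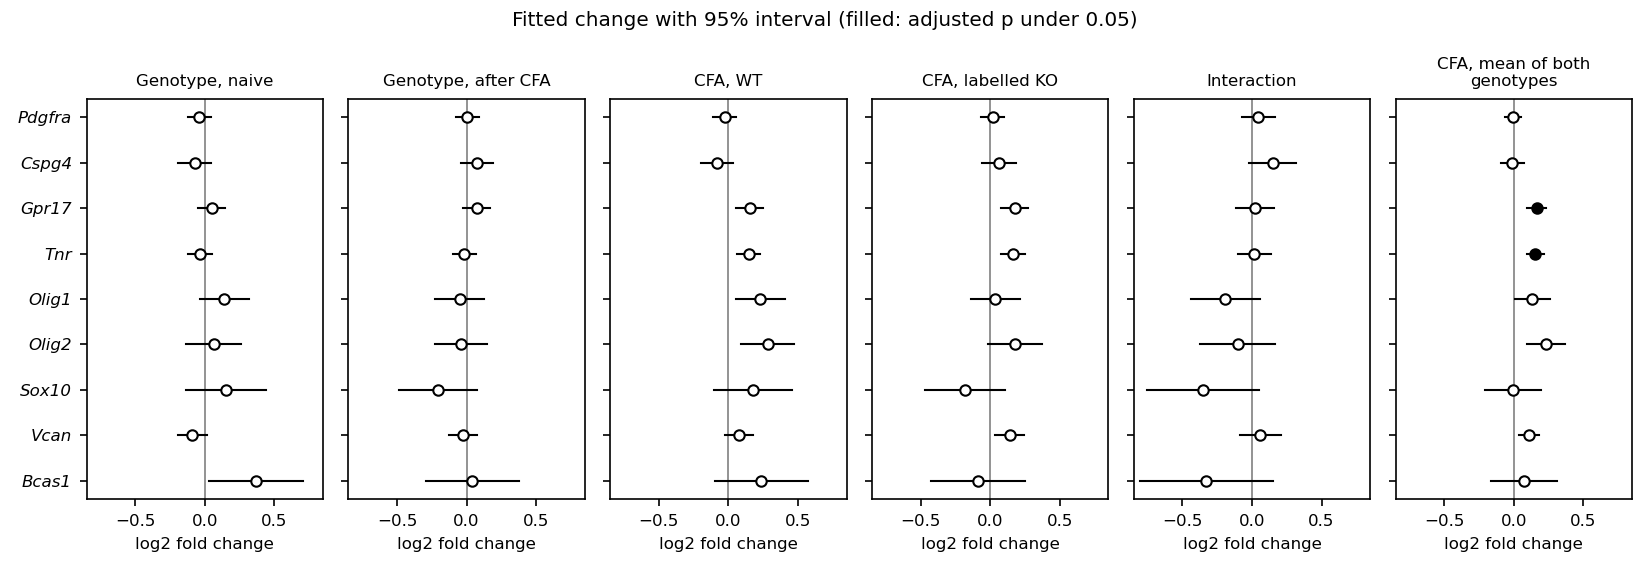
Log2 fold change (x axes) of each of the 9 genes (rows) in 6 comparisons (panels), with 95% intervals as lines; filled circles mark an edgeR adjusted p under 0.05. Gpr17 and Tnr are filled in the panel that averages the CFA change over genotypes (0.17 and 0.15), and the intervals of Bcas1 and Sox10 are the widest.

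Taken within each genotype, these changes did not pass the test over all genes. In WT, CFA called 0 of the 9 genes by edgeR, where 2.23% of all tested genes were called, and DESeq2 called 2 (Tnr and Olig2). For this contrast DESeq2 called 765 of all genes and edgeR 409. Without the filter Tnr was called by edgeR too (adjusted p = 0.0463). Of the 9, 4 had an unadjusted p under 0.05, against 17.6% of all genes: Tnr (log2 change 0.15, SE 0.04, edgeR adjusted p = 0.0611), Gpr17 (0.15, SE 0.05, adjusted p = 0.0841), Olig2 (0.28, SE 0.09, adjusted p = 0.109) and Olig1 (0.23, SE 0.08, adjusted p = 0.163). Groups did not overlap for 1 of the 9 (Tnr), against 11.3% of all genes. Leaving out naive library 8 labelled KO brought the Tnr change past the test (edgeR adjusted p = 0.0368), and the Olig2 change was called when WT naive library 4 was left out (log2 change 0.37, adjusted p = 0.03). In libraries labelled KO, CFA called 0 of 9 genes by edgeR or DESeq2 (0.185% of all tested genes by edgeR). Of them, 3 had an unadjusted p under 0.05 (7.81% of all genes), and the same 3, Tnr, Gpr17 and Vcan, had groups that did not overlap (4.29% of all genes). Exact two-sided permutation tests of the 36 member comparisons between 2 groups gave p = 0.0286, the smallest that 4 libraries against 4 allow, for 4 of them (Tnr in both genotypes, Gpr17 and Vcan in libraries labelled KO; adjusted p = 0.257 over the 36).

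Between genotypes the CFA change of Gpr17 differed by 0.02 on the log2 scale (SE 0.07; 95% interval of the ratio of folds 0.924 to 1.12), and that of Tnr by 0.02 (SE 0.06; 0.931 to 1.1). Of Lims2, which overlaps Gpr17, the level was 10.2 ± 1.22 CPM in WT naive and 10.4 ± 1.22 CPM in WT after CFA, and its averaged CFA change was 0.04 (edgeR adjusted p = 0.854). The 11 neuron markers, of interest because Tnr is also neuronal, summed to 6842 to 7093 CPM in WT naive and 7269 to 7485 CPM in WT after CFA, without overlap. In libraries labelled KO they summed to 7031 to 7695 CPM in naive and 7087 to 7226 CPM after CFA. None of the 11 was at 0, and 7 of the 11 were fitted higher after CFA in WT. There edgeR called 1 of them, Nefl, which was higher after CFA (mean 417 CPM in naive, 552 CPM after). DESeq2 called 2 in WT, Nefl and Syt1, and Syt1 was lower after CFA (734 CPM in naive, 651 CPM after). In the average both tools called 0 of the 11, with 1 at an unadjusted p under 0.05. The 10 astrocyte markers summed to 3725 to 3939 CPM in WT naive and 3928 to 4037 CPM in WT after CFA, and in libraries labelled KO to 3643 to 4074 CPM in naive and 3531 to 3800 CPM after CFA; 2 of the 10 were called higher in the average. None of these was at 0. Of 10 thalamic relay markers edgeR called 2 higher for CFA in WT (Ntng1 and Cbln1), 0 in libraries labelled KO (3 at an unadjusted p under 0.05; DESeq2 called 1) and 2 higher in the average (Prkcd and Plekhg1). Their sum lay between 874 and 916 CPM in WT naive and 882 and 974 CPM in WT after CFA, and in libraries labelled KO between 887 and 996 CPM in naive and 870.2 and 1011 CPM after CFA. The largest parts of the relay sum were Slc17a6 and Calb2, with means of 470 and 197 CPM over the 16 libraries. Slc17a6 is also among the 11 neuron markers. The part of the neuron, astrocyte and relay markers in the Gpr17 and Tnr results was not tested. With the myelin score in the model 5 of the 9 genes were called in the CFA average, all higher: Gpr17, Tnr, Olig1 (0.14), Olig2 (0.24) and Vcan (0.11). In that fit 820 of all 18350 tested genes were called, against 332 without the score. The fit takes out a measure that Olig1 and, once group means were subtracted, Olig2 move with.

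Vcan, a large chondroitin sulfate proteoglycan that binds hyaluronan, was at 37.7, 37.3, 41.7 and 38.2 CPM in WT naive and 37.6, 37.1, 38.4 and 32.9 CPM in naive libraries labelled KO. After CFA it was at 44.3, 41, 40 and 38.6 CPM in WT and at 40.3, 40.1, 39.8 and 40.4 CPM in libraries labelled KO. The averaged CFA change of Vcan was 0.11 (SE 0.03, edgeR adjusted p = 0.121). Olig2 was at 39.2, 32.2, 33.3 and 43.2 CPM in WT naive and 41.6, 45.5, 47.7 and 44.3 CPM in WT after CFA, with 1 naive library (number 4) inside the CFA range. For libraries labelled KO, Olig2 was at 40.3, 35.9, 37.3 and 40.1 CPM in naive and 49.7, 43.3, 40.1 and 40.4 CPM after CFA. Its averaged change was 0.23 (SE 0.06, edgeR adjusted p = 0.084).

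Pdgfra and Cspg4 differed between treatments by less than the spread between libraries. Pdgfra was at 78.7, 83.9, 88.9 and 79.5 CPM in WT naive and 80.1, 82.3, 83 and 79.9 CPM in WT after CFA. In libraries labelled KO it was at 85.4, 81.3, 78.6 and 76.4 CPM in naive and 81.6, 81.1, 84.6 and 79.3 CPM after CFA. The CFA ranges lay inside the naive ranges in both genotypes. The averaged CFA fold of Pdgfra had a 95% interval of 0.957 to 1.04, and that of Cspg4, which is also a pericyte gene, of 0.937 to 1.05. Cspg4 itself lay between 25.9 and 31.5 CPM over the 16 libraries, with overlapping groups throughout. Of 10 mural markers edgeR and DESeq2 called 0 in the CFA average (1 by edgeR and 2 by DESeq2 at an unadjusted p under 0.05), and their sum lay between 168 and 221 CPM over all libraries. The fibroblast list holds 10 markers, Pdgfra among them, and the other 9 summed to between 62.8 and 101.3 CPM, with 0 of the 10 called and 0 at an unadjusted p under 0.05 in that contrast by either tool.

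No call was made among other genes of the precursor state. Of 18 further precursor genes 17 were tested (Lhfpl3 did not pass the filter), and edgeR and DESeq2 called 0 of the 17 in each of the 7 contrasts, including the 2 averages, with 0 to 3 at an unadjusted p under 0.05 by either tool. In the CFA average 2 of them by edgeR had an unadjusted p under 0.05, Neu4 (log2 change 0.11, adjusted p = 0.206), which encodes a sialidase, and Susd5 (0.13, adjusted p = 0.209). Their median CFA change was 0.04, where the 9 genes had a median of 0.11 and all tested genes one of 0.00. In the genotype average the lowest p was that of the Notch ligand gene Dll3 (-0.24, adjusted p = 0.152).

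Of 14 genes of committed precursors and newly formed oligodendrocytes, 2 were called higher and 0 lower after CFA in the average, where 1.81% of all tested genes were called: Tns3 (1.16-fold, edgeR adjusted p = 0.00429), a focal adhesion gene of newly formed oligodendrocytes, and the zinc finger gene Zfp536 (1.19-fold, adjusted p = 0.038). Tns3 was also called in WT alone (log2 change 0.25, SE 0.05, adjusted p = 0.0154) and was at 0.17 in libraries labelled KO (adjusted p = 0.333). In the genotype average 1 of 14 was called, where 3.73% of all tested genes were. It was Itpr2, the IP3 receptor gene of newly formed oligodendrocytes, 1.1-fold higher in libraries labelled KO (adjusted p = 0.00933). The summed level of the 14 genes was 1245 ± 58.8 CPM in WT naive, 1318 ± 64.6 in naive libraries labelled KO, 1374 ± 74.5 in WT after CFA and 1329 ± 44.9 CPM in CFA libraries labelled KO.

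Among the ligands that act on Pdgfra and its relative, Pdgfa, the main ligand of the alpha receptor, was at 40 ± 1.7 CPM in WT naive and 38.6 ± 0.672 CPM in WT after CFA, and its averaged CFA change was -0.03 (edgeR adjusted p = 0.62). Of the 5 PDGF pathway genes 1 was called in the CFA average, Pdgfc (1.17-fold higher, edgeR adjusted p = 0.0441). The beta receptor gene Pdgfrb, a mural cell gene, had a genotype average of -0.19 (edgeR adjusted p = 0.0875; called by DESeq2). Of 12 regulators of maturation (Lingo1 and genes of the Notch, BMP, Wnt and Id families), 1 was called in the CFA average, the Id2 gene of an inhibitor of helix-loop-helix factors, and it was higher (1.24-fold). Id2 was called in WT (log2 change 0.33, SE 0.04, adjusted p = 0.000252) and in libraries labelled KO (0.30, SE 0.04, adjusted p = 0.00146). Id4, a relative, was at -0.35 in WT (adjusted p = 0.0729) and 0.16 in libraries labelled KO (adjusted p = 0.743); DESeq2 called its change in WT and its interaction.

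Of 9 genes of the perineuronal matrix, which tenascin R and versican help to build, edgeR called 0 in each of the 7 contrasts, where between 0.0654% and 3.73% of all tested genes were called. At an unadjusted p under 0.05 there were 0 to 3 of the 9, where between 7.81% and 17.6% of all tested genes were. DESeq2 called Ncan and Hapln2 for CFA in WT, where it called 765 of all genes, and Ncan in the CFA average, where it called 542. The neurocan gene Ncan was at -0.21 in WT after CFA (SE 0.06, edgeR adjusted p = 0.0578), with groups that did not overlap, and at -0.13 in the CFA average (adjusted p = 0.103). The link protein gene Hapln2 was at 0.47 in WT (adjusted p = 0.107). Of the 18 myelin genes edgeR and DESeq2 called 0 in each of the 7 contrasts, with 0 to 4 (edgeR) and 0 to 6 (DESeq2) at an unadjusted p under 0.05. Opalin had the lowest p of the myelin genes in the CFA average (-0.31, SE 0.12, adjusted p = 0.225).

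The genes whose pattern over the 16 libraries was most like the mean standardised level of the 9 genes, among 14880 other genes whose mean reached 1 CPM, were Pld1 (Pearson r = 0.898), Mast4 (0.879), Tgm2 (0.868), Entpd5 (0.865) and Map7 (0.864). Those most like Pdgfra alone were Usp47 (r = 0.813), Ccdc50 (0.8) and Rictor (0.79). Those most like Gpr17 were Ap3b1 (r = 0.908), Fgfr3 (0.856) and Trpv3 (0.855). These are the highest of many values and are given as a description.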

How the data were processed

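For each of the 16 libraries the authors deposited a table of whole, unnormalized counts by Ensembl gene ID. The submitters' processing notes name TopHat, DESeq2 and the build mm10, with no version; the annotation and strand setting used for counting are not stated. The 5 summary lines that end each table (38% to 39.9% of listed reads) were left out. Symbols, positions and exon lengths came from GENCODE M21, which matched 37607 of 38924 IDs.

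Counts were fitted with edgeR 4.0.16 in R 4.3.3 (filterByExpr with a minimum count of 10, TMM, robust quasi-likelihood, 1 mean per group over all 16 libraries). Two-sided p-values were adjusted (Benjamini-Hochberg) over all 18350 genes, calls were made below 0.05, and intervals are at 95%. There were 5 planned contrasts, and 2 averages were added after the data were seen. Relations used log2 CPM with a prior count of 0.5 and 100000 permutations. DESeq2 1.42.0, RLE size factors, no filter, fits of 2 groups, thinning, a myelin covariate and left-out libraries were alternatives. The fit was tested on simulated data. Replicates differed by more than sampling noise (chi-square per degree of freedom 3.36 to 12.8). The labels' protocol calls the libraries biological replicates.

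The members and lists were chosen with earlier results of these data known. All members were named in every comparison. From each other list, called genes (up to 3) or otherwise those with the lowest p (up to 2) were named. The 3 or 5 genes most like a pattern were ranked by Pearson r; not every gene that meets the rule is named. Lims2 was chosen because it overlaps Gpr17.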

Additional observations from a re-analysis of the deposited data

Results flagged for a closer look

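In CFA libraries labelled KO, Gpr17 was at 74.9 CPM in library 14 and between 77.9 and 78.1 CPM in the other 3, a gap that is large for a group of 4. Chance flags about 1 in 20 groups, and 1 of the 40 groups examined (the 9 genes and the myelin sum in 4 groups each) was flagged.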

How the results depend on the processing

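No paired analysis was made because the labels state no pairing between libraries. Across 23 alternatives, 1408 of 1422 recomputed values of the 9 genes kept their side of the threshold, 14 gained a call, 0 lost one and 0 called values reversed; 77 values without a call switched sign. Numbers of the 9 genes called that changed were, for CFA in WT, 1 without the filter, 2 by DESeq2, 1 with the myelin score, 1 without naive libraries 7 and 8 labelled KO and 0 to 1 with single libraries left out. With the myelin score they were 1 for genotype after CFA, 1 for the genotype average and 5 for the CFA average, which had 3 by DESeq2 and 2 to 3 with single libraries left out.

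Counts over all genes moved more. DESeq2 called 461 against 266 genes for genotype in naive, 453 against 294 for genotype after CFA, 765 against 409 for CFA in WT, 88 against 34 for CFA in libraries labelled KO, 90 against 12 for the interaction and 542 against 332 for the CFA average. Thinned to the shallowest library the counts were 186 for genotype after CFA, 218 for CFA in WT, 7 for the interaction and 449 (against 685) for the genotype average. With the myelin score they were 69 for CFA in libraries labelled KO and 820 for the CFA average. Without naive libraries 7 and 8 labelled KO they were 92 for genotype in naive, 681 for CFA in WT and 17 for CFA in libraries labelled KO, and without the filter 31 for the interaction. With 1 library left out they ranged from 135 to 296 (genotype in naive), 195 to 407 (genotype after CFA), 178 to 754 (CFA in WT), 16 to 42 (CFA in libraries labelled KO), 5 to 27 (interaction), 204 to 493 (CFA average) and 505 to 734 (genotype average). Counts moved by over 1.5 times without library 2, 3, 6 or 8 (genotype in naive: 166, 148, 135 and 169 genes), 16 (genotype after CFA: 195), 2, 3, 8, 10, 11 or 12 (CFA in WT: 178, 205, 754, 250, 210 and 225), 6, 13, 15 or 16 (CFA in libraries labelled KO: 16, 19, 16 and 16) and 2, 6 or 16 (CFA average: 204, 206 and 220), and for the interaction without 4, 5, 6, 7, 8, 11, 13, 15 or 16 (6, 25, 6, 27, 5, 6, 6, 6 and 5). Thinning changed no call among the 9 genes. Apart from the covariate and the left-out samples, the cause was not tested. Of 45 relations 9 passed, 8 without the 2 farthest libraries and 9 after group means were subtracted.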

Other observations

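Cell cycle genes, which dividing precursors express, were low in these punches. The 7 tested genes (of 8 listed, without Ccnb1) summed to between 27.6 and 34.3 CPM over the 16 libraries, with the highest sum in naive library 8 labelled KO. Most of that sum was Pcna (mean 18.2 CPM), while Mki67, Top2a and Cdk1 had means of 0.68, 0.68 and 0.2 CPM. Across the 7 contrasts edgeR and DESeq2 called 0 of these genes, with 0 to 2 at an unadjusted p under 0.05 in each. Microglia markers summed to 249 to 291 CPM and endothelial markers to 209 to 250.5 CPM. The 10 astrocyte markers summed to 3976 ± 51.8 CPM in WT after CFA and 3683 ± 129 CPM in CFA libraries labelled KO (SD, n = 4 each).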
